A study of Mus musculus with 14 samples.

Results

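IL-33 and its relatives of the interleukin 1 family were followed by age in sorted mouse skeletal muscle precursor cells. The group holds 8 genes, which are the ligands Il33, Il18, Il1a and Il1b, the receptor antagonist Il1rn, and the receptor chains Il1rl1, Il1r1 and Il1rap. They were chosen by the log2 intensity of Il33, which was far higher in older than in young arrays of this series, so its values are given as a description without a test. Of the 8 genes, 7 had at least 1 probe set annotated to them alone, 14 probe sets in all, among 18193 genes and 34945 probe sets on the arrays. Il1rl1 had no such probe set and was not analysed here. After probe sets near the low end of the arrays were removed, 6 genes with 8 probe sets remained, namely Il33, Il18, Il1b, Il1rn, Il1r1 and Il1rap, of 13579 genes in all.

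The series comprised 14 Affymetrix arrays of untreated C57BL/6 mice. There were 5 arrays of young (2 months), 4 of middle-aged (12 months) and 5 of aged mice (24 months). The cells were taken from muscle by digestion and sorted as negative for CD45, Ter119 and Sca-1 and positive for CD29 and Cxcr4, a gate that holds satellite cells, the muscle stem cells. The labels do not say whether the arrays came from separate mice or from pools, so p-values measure the spread between these samples, which may be technical.

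IL-33 is a nuclear cytokine that is released when cells are damaged. It binds the receptor ST2, the product of Il1rl1, which pairs with the accessory chain encoded by Il1rap. The complex signals through MyD88 and IRAK kinases to NF-kappaB, as the interleukin 1 receptor does, and in mouse muscle fibro-adipogenic progenitors are a known source of the cytokine, which acts on regulatory T cells. Interleukin 1 alpha and beta both bind the receptor of Il1r1, where the product of Il1rn blocks them, and IL-18 has a receptor of its own.

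Values are log2 of the authors' RMA intensities. The 40th percentile of an array, the level used to call a probe set dim, lay between 3.79 and 3.96 on this scale. The arrays were split into 2 sets by the sign of their score on the first principal component of age-centred values, which held 31.5% of their variance. Because of the centring, each age was bound to have arrays in both sets. Set 1 held young 1, 3 and 4, middle-aged 2, 3 and 4, and aged 1 and 2, and set 2 held young 2 and 5, middle-aged 1, and aged 3, 4 and 5. The sets came from the values themselves and not from the labels, and results that rest on them are given with both. At each age the hybridization control probe sets read lower in set 2 than in set 1. Their means were 9.83 and 9.99 against 10.38 to 10.69 in young and 9.97 against 10.70 to 10.85 in middle-aged arrays. In aged arrays they were 9.72 to 10.54 against 10.92 and 11.09. The part of hybridization in the sets was not tested. The difference between 3' and 5' control probe sets, a measure of RNA integrity, was 3.54 ± 0.51 in aged and 4.30 ± 0.54 in young arrays (log2, SD, n = 5 each; exact two-sided permutation test, p = 0.0714). It was 3.85 ± 0.25 in the 4 middle-aged arrays. Of the sorted proteins, Itgb1, which encodes CD29, averaged 8.24, 8.39 and 8.12 and Cxcr4 averaged 8.60, 8.09 and 8.25 in young, middle-aged and aged arrays. Ptprc, which encodes CD45, was dim on all 14 arrays, and Ly6a, which encodes Sca-1, had no probe set of its own.

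The 250 bases before the annotated starts of Il33 and Il18 are shown because these 2 ligands were higher in the older arrays. The sequences are from RefSeq on GRCm38.p6, which gave a promoter for all 8 genes, and they run 5′ to 3′ on the plus strand, ending at the base before the start. Capitals mark matches to the TATA box (TATAAA) or the CCAAT box on either strand. Il33 has 2 annotated starts on chromosome 19, at chr19:29924863-29925112 and chr19:29945540-29945789, and the Il18 window lies at chr9:50554450-50554699.
Il33 first start: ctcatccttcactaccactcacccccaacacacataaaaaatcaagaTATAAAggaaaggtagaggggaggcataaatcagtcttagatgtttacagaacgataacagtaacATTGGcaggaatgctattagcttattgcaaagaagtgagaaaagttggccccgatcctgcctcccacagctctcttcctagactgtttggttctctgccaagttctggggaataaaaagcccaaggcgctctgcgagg
Il33 second start: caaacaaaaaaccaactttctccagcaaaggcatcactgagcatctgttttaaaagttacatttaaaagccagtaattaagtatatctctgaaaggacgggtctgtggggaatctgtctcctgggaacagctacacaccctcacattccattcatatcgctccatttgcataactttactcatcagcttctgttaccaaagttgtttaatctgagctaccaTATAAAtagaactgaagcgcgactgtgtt
Il18: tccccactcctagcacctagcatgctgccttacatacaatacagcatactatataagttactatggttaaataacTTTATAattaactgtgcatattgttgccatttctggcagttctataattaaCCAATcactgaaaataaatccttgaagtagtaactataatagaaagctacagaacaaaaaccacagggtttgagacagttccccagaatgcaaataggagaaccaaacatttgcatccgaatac
The window of the first Il33 start holds TATAAA 203 bases and a reverse CCAAT box 138 bases before the start, while that of the second start holds TATAAA 29 bases before it. The Il18 window holds a reverse TATAAA 175 bases and a CCAAT box 124 bases before the start. TATAAA is found in 12.4% and CCAAT in 33.8% of 32851 promoter windows of the same length. Both strands were also searched for AP-1 (TGANTCA, in 6.75% of windows), GAS (TTCNNNGAA, 7.02%) and the NF-kappaB motif (7.25%), with no match in these 3 windows and no overlap between matches. A match is a run of letters and does not show that a factor binds there. The annotation names no start for the array's probe sets, so the 2 starts of Il33 are not separated by these values.

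Il33 was the gene by which the group was chosen, and it was higher in every aged and every middle-aged array than in every young one. Its single probe set (1416200_at, Entrez 77125) read 6.13, 6.82, 5.50, 6.00 and 6.34 in the young arrays. The middle-aged arrays read 9.82, 8.90, 9.87 and 9.05, and the aged arrays 10.64, 10.48, 10.59, 9.20 and 9.52. The lowest older array stood 2.08 above the highest young one, while the aged and middle-aged ranges overlapped. The aged mean was 10.09 ± 0.67 and the young mean 6.16 ± 0.48 (SD, n = 5 each), a log2 difference of 3.93 ± 0.32 (SE) or 15.2-fold. The middle-aged mean was 9.41 ± 0.51 (n = 4), which lay 3.25 ± 0.34 above young (9.53-fold) and made up 82.8% of the whole log2 difference. Aged arrays averaged 0.68 ± 0.34 above middle-aged ones (1.60-fold). On the linear scale the mean intensity was 74.7 in young, 712 in middle-aged and 1176 in aged arrays.

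The difference between ages was present in both array sets, with an unequal size. Within set 1 aged arrays were 4.68 above young ones and within set 2 they were 3.19 above. In aged arrays Il33 was 0.79 lower in set 2 than in set 1, whereas it was 0.70 higher in set 2 among young arrays and 0.55 higher in the 1 middle-aged array of set 2. Between aged and middle-aged arrays, the difference was 1.28 within set 1 and −0.05 within set 2, where 3 aged arrays stood against 1 middle-aged array. In RNA from a sorted population, fewer cells of a type and less RNA per cell cannot be told apart.

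**Figure D1:**
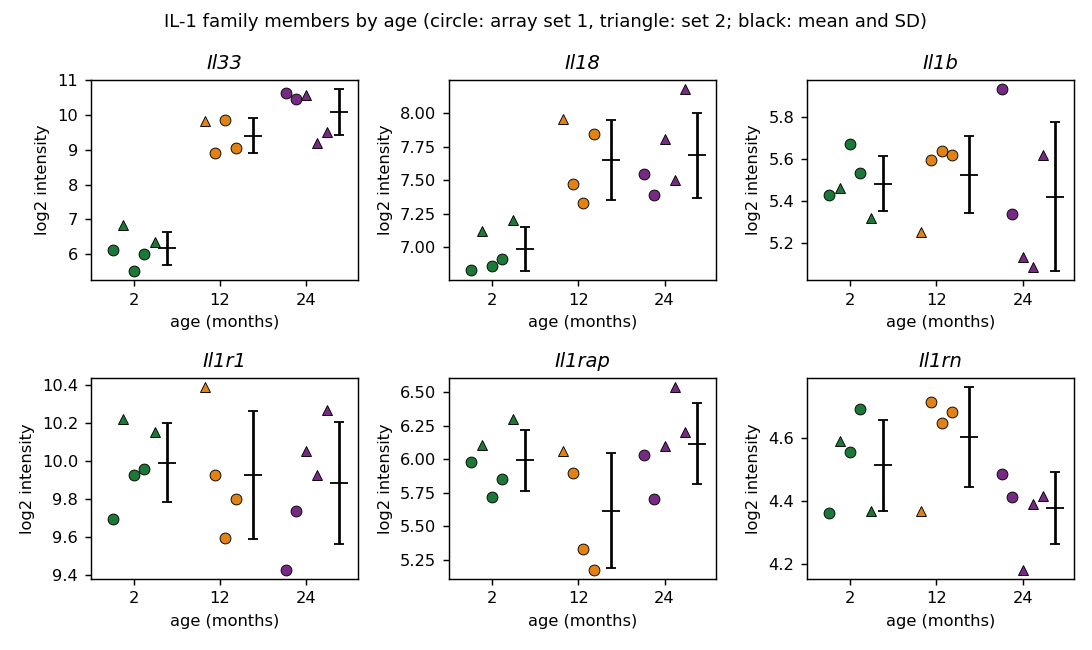
Log2 intensity of the 6 measured genes on each array by age in months. Circles are arrays of set 1 and triangles of set 2, and black marks are the group mean and SD; young Il33 values lie between 5.50 and 6.82 and all older ones at 8.90 or above, and for Il18 too no older array reaches down to the young ones.

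Of the 5 other measured members, 1 passed the test between aged and young arrays, and it was higher. Among all genes 4.30% passed there, 3.05% higher and 1.25% lower (limma, Benjamini-Hochberg adjusted p under 0.05 over 13579 genes). None passed between middle-aged and young arrays, where 2.97% of all genes did, 1.75% higher and 1.22% lower, and 2217 of 13579 had an unadjusted p under 0.05. None passed between aged and middle-aged arrays either, where limma called 0 of 13579 genes while 1306 had an unadjusted p under 0.05. The median log2 change of these 5 members was −0.06, 0.04 and −0.04 in the 3 comparisons, against −0.05, −0.04 and 0.01 for all genes. The first 2 comparisons share the young arrays.

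Il18, a cytokine that is made as a precursor and cut by caspase-1, was the member that rose. Its probe set (1417932_at, Entrez 16173) read 6.83, 7.12, 6.86, 6.91 and 7.20 in young, 7.96, 7.47, 7.33 and 7.84 in middle-aged, and 7.55, 7.39, 7.81, 7.50 and 8.18 in aged arrays. Every aged and every middle-aged array lay above every young one, and the aged and middle-aged ranges overlapped. Mean levels were 7.69 ± 0.32 in aged and 6.99 ± 0.17 in young arrays (SD, n = 5 each), a log2 change of 0.70 ± 0.17 (SE), or 1.62-fold, with a limma adjusted p of 0.0305 and a 95% interval of 0.33 to 1.07. Middle-aged arrays averaged 7.65 ± 0.30 (n = 4), 0.66 ± 0.18 above young (1.58-fold, 95% interval 0.27 to 1.05), and this missed the threshold with a limma adjusted p of 0.0654. That comparison passed with array weights (limma adjusted p = 0.0128), quantile normalization (0.0432), only the groups compared (0.0469) and without aged array 5 (0.0395). It passed within set 1 (0.0435), but the sets were read from these same values, so that p is no added evidence. Among other refits it missed with each array centred on its median (limma adjusted p = 0.103) and another variance model (0.0981). It also missed with the difference of the control probe sets in the model (0.0979) and with a replicate term (0.0744). With 1 array left out the limma adjusted p ran from 0.0395 to 0.194. Aged and middle-aged arrays differed by 0.04 ± 0.18, with an interval of −0.35 to 0.43 (limma adjusted p = 0.971).

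The aged against young call for Il18 was kept in 9 of 14 fits that left out 1 array and lost in 5. Without young array 1, 3 or 4 the change was 0.66, 0.67 or 0.68, with a limma adjusted p of 0.0833, 0.0840 or 0.0735. Without aged array 3 it was 0.67 (0.0655) and without aged array 5 it was 0.57 (0.0627). With the difference of the control probe sets in the model the change was 0.55 (limma adjusted p = 0.178), and the part of RNA integrity in it was not tested further. It was 0.60 within set 1 (0.111) and 0.67 within set 2 (0.396), each with fewer arrays. A term for the set gave 0.63 (limma adjusted p = 0.0140), but the sets were read from these same values, so that term lowers the residual spread by construction and its p is no added evidence.

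**Figure D2:**
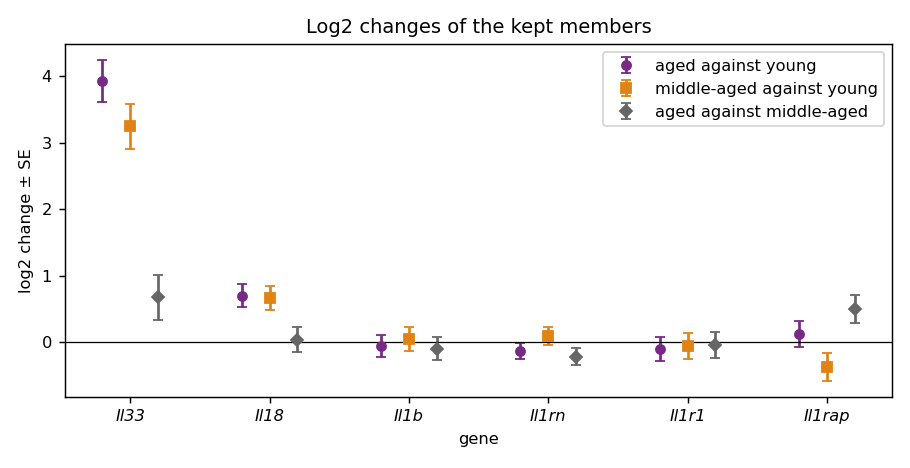
Log2 change of each measured member with its SE, for aged against young, middle-aged against young and aged against middle-aged arrays. Il33 stands at 3.93 and 3.25 against young and Il18 at 0.70 and 0.66, and the other 4 genes lie between −0.38 and 0.50 in all 3 comparisons.

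Il1b, an inflammatory cytokine made mainly by myeloid cells, was low and did not pass the test in any comparison. Its probe set (1449399_a_at, Entrez 16176) read 5.43, 5.46, 5.67, 5.53 and 5.32 in young, 5.25, 5.60, 5.64 and 5.62 in middle-aged, and 5.93, 5.34, 5.13, 5.09 and 5.62 in aged arrays. The aged arrays spread on both sides of the young ones. The aged mean was 5.42 ± 0.36 and the young mean 5.48 ± 0.13 (SD, n = 5 each), a difference of −0.06 ± 0.16 with a 95% interval of −0.41 to 0.29 (limma adjusted p = 0.898). Middle-aged arrays averaged 5.53 ± 0.18 (n = 4), 0.04 ± 0.17 above young (limma adjusted p = 0.942).

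Il1a, the second ligand of the interleukin 1 receptor, was dim on all 14 arrays, with its probe set (1421473_at, Entrez 16175) between 2.80 and 3.31. It entered no test. Il1rn, the natural antagonist of both ligands, was above the dim level on all arrays but close to it. Its probe set 1423017_a_at (Entrez 16181) read 4.36, 4.59, 4.56, 4.69 and 4.37 in young, 4.37, 4.71, 4.65 and 4.68 in middle-aged, and 4.49, 4.41, 4.18, 4.39 and 4.42 in aged arrays. The groups overlapped. Aged arrays averaged 4.38 ± 0.11 and young ones 4.51 ± 0.15 (SD, n = 5 each), a change of −0.14 ± 0.12 with a 95% interval of −0.39 to 0.12 (limma adjusted p = 0.640). The middle-aged mean of 4.60 ± 0.16 was 0.09 ± 0.13 above young (limma adjusted p = 0.810). The other 2 probe sets of Il1rn were dim on all 14 arrays.

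Il1r1, the signalling receptor of interleukin 1, had high values in every array and did not pass the test at any age. Probe set 1448950_at (Entrez 16177) read 9.69, 10.22, 9.93, 9.96 and 10.15 in young, 10.39, 9.93, 9.59 and 9.80 in middle-aged, and 9.43, 9.74, 10.05, 9.93 and 10.27 in aged arrays. Aged arrays averaged 9.88 ± 0.32 and young ones 9.99 ± 0.21 (SD, n = 5 each), a change of −0.11 ± 0.18 (limma adjusted p = 0.827). The 95% interval of that change ran from −0.50 to 0.28. Middle-aged arrays, at 9.93 ± 0.34, differed from young by −0.06 ± 0.19 (limma adjusted p = 0.919), and aged differed from middle-aged arrays by −0.04 ± 0.19 (limma adjusted p = 0.963). Set 2 was above set 1 at each age, by 0.33 in young, 0.62 in middle-aged and 0.50 in aged arrays. A second probe set, 1459777_at, stayed between 2.66 and 2.95 and was dim on all 14 arrays.

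Il1rap, the accessory chain shared by the receptors for interleukin 1 and IL-33, had 5 probe sets, of which 3 were kept. The brightest, 1421844_at (Entrez 16180), read 5.98, 6.11, 5.72, 5.86 and 6.30 in young, 6.06, 5.90, 5.33 and 5.18 in middle-aged, and 6.03, 5.70, 6.10, 6.54 and 6.21 in aged arrays. Middle-aged arrays 3 and 4 were lower than every other array, and the groups otherwise overlapped. Aged arrays averaged 6.12 ± 0.30 and young arrays 5.99 ± 0.23 (SD, n = 5 each), a change of 0.12 ± 0.20 with a 95% interval of −0.30 to 0.54 (limma adjusted p = 0.817). The middle-aged mean of 5.62 ± 0.43 (n = 4) was −0.38 ± 0.21 relative to young (limma adjusted p = 0.407), and aged arrays were 0.50 ± 0.21 above middle-aged ones (limma adjusted p = 0.472).

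The other kept probe sets of Il1rap differed in sign. For middle-aged against young arrays, 1421843_at differed by 0.13 (limma adjusted p = 0.719) and 1449585_at by −0.64 (limma adjusted p = 0.413), so the sign depended on the probe set. The last of these passed the dim level on 10 of 14 arrays, and its highest value, 5.71, was in young array 5. The remaining 2 were dim on at least 13 of 14 arrays. Set 2 was above set 1 at every age for 1421844_at, by 0.35, 0.59 and 0.41 in young, middle-aged and aged arrays, and the part of the set in the low middle-aged mean was not tested.

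**Figure D3:**
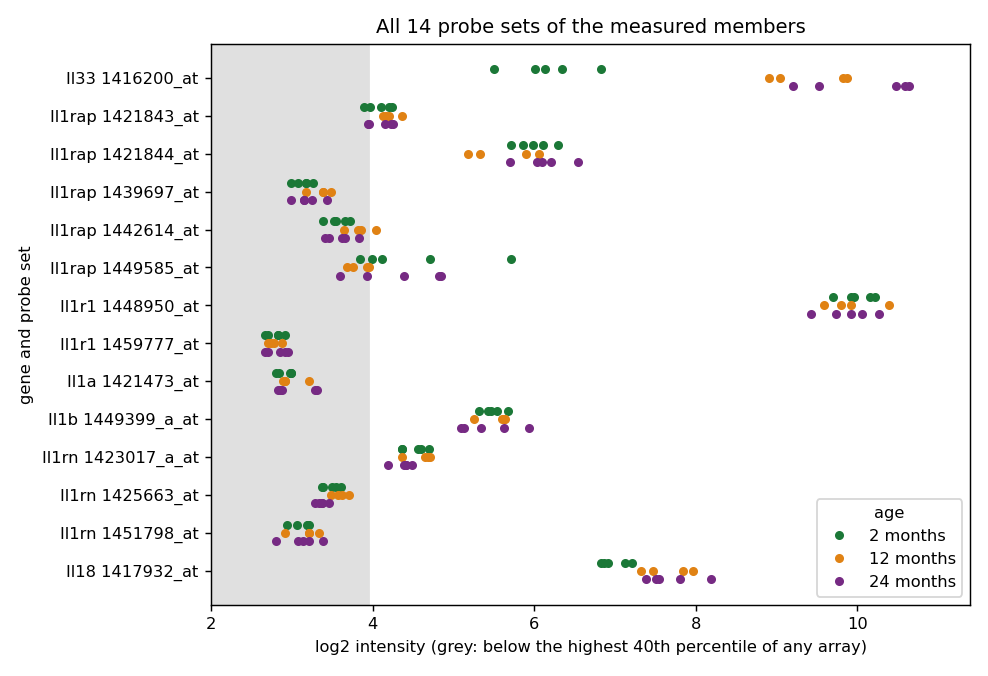
Log2 intensity of all 14 probe sets annotated to 7 member genes, by age group, with each array as a dot. The grey band covers values under 3.96, the highest 40th percentile of any array; Il1a and the second probe set of Il1r1 lie in it on every array, while Il33, Il18 and the brighter probe set of Il1r1 lie outside it on every array.

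Other ligands of the family, the IL-36 group Il1f6, Il1f8 and Il1f9, the antagonist Il1f5 and Il1f10, were all near the low end, with group means between 3.76 and 5.51. None of the 5 passed in any comparison. Their median change was −0.09 for aged against young and 0.11 for middle-aged against young. Among other receptors and decoys, 5 of 8 were kept, the decoy Il1r2, Il1rl2, the IL-18 accessory chain Il18rap, the IL-18 binding protein Il18bp and the inhibitory receptor Sigirr, and none of the 5 passed. Il1r2 had the largest difference of these 5 from young arrays, 5.38 ± 0.39 in middle-aged and 4.89 ± 0.22 in young arrays, a difference of 0.50 ± 0.19 (limma adjusted p = 0.200). Il18r1, which binds IL-18, was dim together with Il1rapl1 and Il1rapl2.

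Of 17 measured genes that act just below the receptors, 0 passed in aged against young and 2 rose in middle-aged against young arrays, beside 3.05% and 1.75% of all genes called higher. Myd88, the adaptor of these receptors, read 10.05, 9.86, 10.13 and 10.09 in middle-aged and 9.57, 9.37, 9.38, 9.61 and 9.31 in young arrays. No middle-aged array overlapped the young range, and the change was 0.59 ± 0.12 or 1.50-fold (limma adjusted p = 0.0196). In aged arrays Myd88 averaged 9.83 ± 0.12, 0.38 ± 0.12 above young (limma adjusted p = 0.0869). That difference passed with each array centred on its median (0.41, limma adjusted p = 0.0497). With a term for the set it was 0.40 (limma adjusted p = 0.0435), but the sets were read from these same values, so that p is no added evidence. Irak3, a kinase homologue that restrains MyD88 signalling, read 7.20, 7.10, 7.17 and 7.30 in middle-aged and 6.25, 6.43, 6.36, 6.25 and 6.41 in young arrays, a change of 0.85 ± 0.19 or 1.80-fold (limma adjusted p = 0.0251).

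The aged arrays of Irak3 were spread more widely, at 7.23, 6.45, 6.86, 6.96 and 6.08, and their mean was 0.38 ± 0.18 above young (limma adjusted p = 0.309). The Myd88 call in middle-aged arrays was lost without young 3 or middle-aged 3 or 4 (limma adjusted p 0.0504 to 0.0755), and that of Irak3 without young 1, 3 or 4 or middle-aged 3 or 4 (0.0591 to 0.0806). Within set 1 the middle-aged change of Myd88 was 0.51 (limma adjusted p = 0.0950). Within set 2, which held 1 middle-aged array, it was 0.72. The median change of the 17 was −0.10 and −0.03 against young.

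Among genes of the inflammasome and of cytokine cutting, 14 of 21 were kept and 1 rose in each comparison with young arrays, where 3.05% (aged) and 1.75% (middle-aged) of all genes were called higher. Casp4, the caspase that senses bacterial lipopolysaccharide inside cells, read 9.58, 9.51, 9.26, 10.22 and 9.76 in aged arrays, against 8.10, 8.73, 8.54, 8.29 and 8.79 in young ones. The groups did not overlap, and the change was 1.17 ± 0.20 or 2.26-fold (limma adjusted p = 0.00343). With the difference of the control probe sets in the model it was 0.84 (limma adjusted p = 0.0503). Middle-aged arrays, at 9.93, 9.15, 9.56 and 9.34, were 1.00 ± 0.21 above young (2.01-fold, limma adjusted p = 0.0204), a call lost without young 1 or 4 or middle-aged 1 or 3 (0.0502 to 0.0696). Casp1, which cuts the precursors of interleukin 1 beta and IL-18, was dim. The sensor Nlrp3 averaged 3.92 in aged and 3.99 in young arrays and the adaptor Pycard 4.74 in aged and 4.83 in young arrays, and neither passed.

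Of 23 measured genes that interleukin 1 and NF-kappaB are known to induce, 7 rose in aged and 8 in middle-aged arrays against young, and none fell, beside 3.05% and 1.75% of all genes called higher. Their median change was 0.62 and 0.71, against −0.05 and −0.04 for all genes. The list was drawn up with earlier results of these arrays known, so its count is no independent evidence. Within set 1 the count was 8 for aged and 7 for middle-aged arrays. Within set 2, where 3 aged arrays or 1 middle-aged array stood against 2 young ones, it was 1 and 0, with log2 changes of 2.33 and 2.79 for Ccl2, 3.67 and 3.79 for Ptgs2 and 1.31 and 1.38 for Icam1. Without middle-aged array 3 the middle-aged count was 5. Mmp3, a matrix metalloproteinase, read 11.75, 11.90, 10.99, 9.49 and 10.08 in aged and 4.03, 3.81, 3.47, 3.69 and 5.41 in young arrays, a log2 difference of 6.76. It passed the dim filter through the older arrays, with 2 of 5 young arrays above the dim level, so this value is not well bounded, no p is given for it and its call in the count follows in part from the filter.

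Ccl2, a chemokine for monocytes, read 9.22, 8.78, 9.35, 9.19 and 9.43 in aged and 6.50, 7.34, 6.38, 6.42 and 6.64 in young arrays, 2.54 ± 0.29 higher in aged ones (limma adjusted p = 0.000209). Ptgs2, the inducible cyclooxygenase, was 4.29 ± 0.52 higher in aged arrays (8.61 ± 0.73 in aged and 4.32 ± 0.54 in young arrays, SD, n = 5 each; limma adjusted p = 0.000328). For Icam1, a leukocyte adhesion molecule, the aged mean was 10.55 ± 0.31 and the young mean 9.28 ± 0.32, a change of 1.27 ± 0.18 (limma adjusted p = 0.000968). None of these 4 genes had an aged array within the young range. They were named for the smallest p of the list in that comparison, so the gap follows in part from their choice.

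In middle-aged arrays the same 4 genes were also higher, with log2 changes against young of 5.69 for Mmp3, 2.08 for Ccl2, 3.34 for Ptgs2 and 1.08 for Icam1. Ccl2, Ptgs2 and Icam1 were called, and the call of Mmp3 again follows in part from the filter. For Mmp3 the value was 5.00 without middle-aged array 3. Sod2, the mitochondrial superoxide dismutase, was 12.10 ± 0.17 in middle-aged and 11.28 ± 0.13 in young arrays, 0.83 ± 0.13 higher (limma adjusted p = 0.00329). With probe sets of shared sequence left out, another probe set stood for Sod2, and its middle-aged value was 0.90 (limma adjusted p = 0.0709). In aged arrays Sod2 was 0.80 ± 0.12 above young (limma adjusted p = 0.00160). Il6 and Lcn2 rose in both comparisons and Zc3h12a in middle-aged arrays, where Zc3h12a changed by 0.91 ± 0.23 (limma adjusted p = 0.0495). Young Il6 values differed by set, at 8.67 and 7.58 in set 2 and 5.90, 5.42 and 5.63 in set 1. Its value in young array 2 lay above that of middle-aged array 2, 8.64, so these groups overlapped. Young Lcn2 values differed the other way, at 4.19 and 4.58 in set 2 and 5.68, 6.29 and 6.25 in set 1. Other well-known targets did not pass in either comparison, among them Nfkbia (0.00 and 0.15), Tnfaip3 (0.29 and 0.35), Vcam1 (−0.22 and −0.12) and Cxcl2 (0.14 and 0.46).

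**Figure D4:**
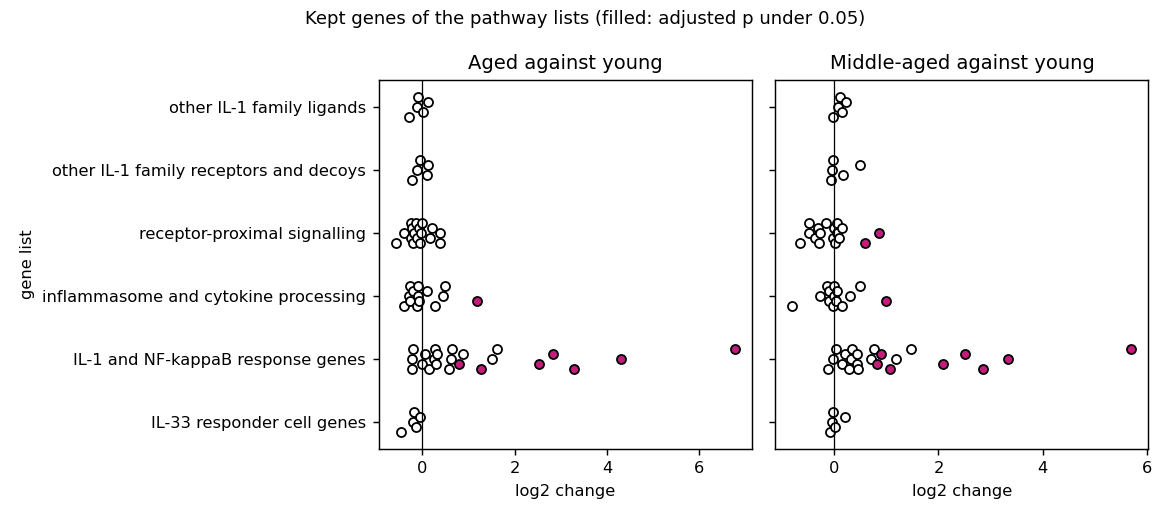
Log2 change of each measured gene in 6 lists around the family, for aged against young and for middle-aged against young arrays, with filled dots for an adjusted p under 0.05. The filled dots are mostly among the 23 response genes, 7 and 8 of them, all to the right of 0. Mmp3, whose call follows in part from the dim filter, is among them.

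Genes typical of cells that respond to IL-33 were mostly dim. The sort left out CD45-positive cells, to which most of these genes belong, so the values do not describe such cells in the muscle. Of 12 listed, Gata3, Il4, Il5, Il13, Ccr3 and Siglecf lay under the dim filter, Areg had no probe set of its own, and the 5 kept genes Foxp3, Rora, Il9, Klrg1 and Icos did not pass in any comparison. Foxp3, which defines regulatory T cells, averaged 3.75 ± 0.25 in aged and 3.88 ± 0.19 in young arrays, at the dim level.

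The genes whose values followed Il33 most closely over the 14 arrays were Apod (Pearson r = 0.98), Pdgfrb (0.98), Mmp3 (0.97), S100a4 (0.97), Timp1 (0.97), C1ra (0.96), Ptgs2 (0.96), Fbln7 (0.96), Gbp6 (0.96) and Itgbl1 (0.96). These values are a description, since the arrays share 3 ages and the gap between young and older arrays carries most of r. The 5 most opposite genes were Plagl1 (−0.97), Plbd1 (−0.91), Slc19a1 (−0.90), Ppp1r14b (−0.90) and Igdcc4 (−0.89). When each age was centred on its mean, the highest values were 0.93 for Tm4sf1, 0.91 for Tgfbi, 0.88 for Bmp5, Vasn and Pdgfrb, 0.87 for S100a4 and Hfe, 0.86 for Ror2 and Ebf1, and 0.85 for C1s1. Pdgfrb and S100a4 are in both groups of genes, and Hfe and Ror2 had r of only 0.12 and 0.22 before centring. The centred values are pooled over ages and are the highest of all kept genes, so they too are a description.

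Pdgfrb, the receptor for platelet-derived growth factor on pericytes and fibroblasts, read 6.40, 7.03, 5.68, 6.10 and 6.81 in young, 9.14, 8.59, 9.84 and 8.99 in middle-aged, and 9.67, 9.74, 9.17, 8.26 and 9.02 in aged arrays. As for Il33, young array 3 had the lowest and young array 2 the highest value among young arrays, and aged array 4 the lowest among aged ones. None of the other members came close, though Pdgfrb was picked from the genes most like Il33. Il18 had r = 0.77 over the 14 arrays and −0.01 after centring, a value pooled over ages that need not agree. Young arrays 2 and 5 had the highest young values of both genes, whereas aged array 5, with the highest Il18 value, had the second lowest aged Il33 value. The values over the 14 arrays were −0.19 for Il1r1, −0.07 for Il1rap, −0.06 for Il1b and −0.25 for Il1rn.

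**Figure D5:**
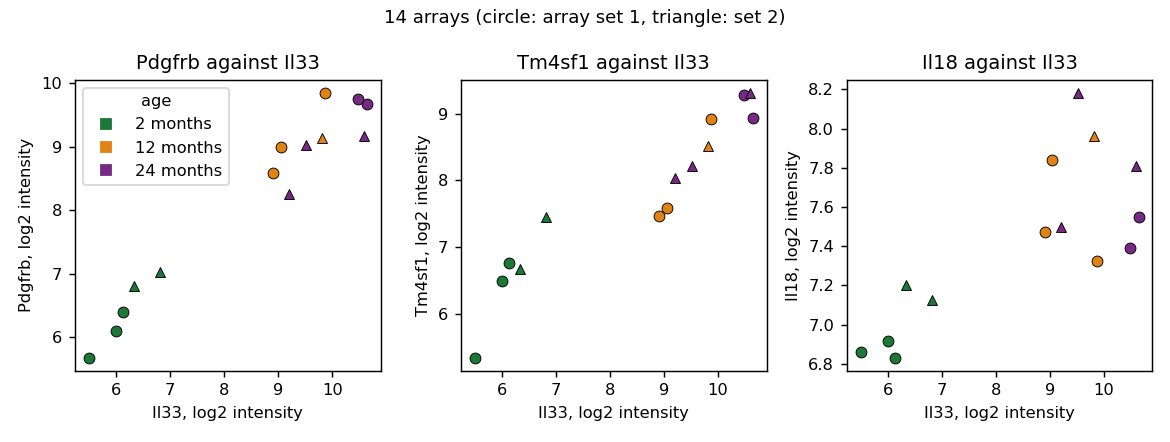
Log2 intensity of Pdgfrb, Tm4sf1 and Il18 against that of Il33, 1 point per array, with colours for age. Pdgfrb and Tm4sf1 were picked from the genes most like Il33, so their high centred r (0.88 and 0.93) follows from that choice. Il18, which was not so picked, differs between young and older arrays and has a centred r of −0.01. Centred r is pooled over ages.

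Some markers of other cell types also differed between the same groups. Of all genes, 3.05% were called higher in aged and 1.75% in middle-aged arrays against young. Of 11 tenocyte markers, 8 rose in aged and 8 in middle-aged arrays against young, and their mean level ranged from 7.07 to 8.31 in young, 9.49 to 10.76 in middle-aged and 9.45 to 10.38 in aged arrays. Of 14 measured fibro-adipogenic and fibroblast markers, 2 rose in aged and 1 in middle-aged arrays, with mean levels of 9.01 to 9.40 in young, 9.37 to 9.96 in middle-aged and 8.90 to 10.16 in aged arrays. Among these, Dcn averaged 13.67 in aged and 12.40 in young arrays. Pdgfra, which defines fibro-adipogenic progenitors, averaged 9.13 in aged and 8.05 in young arrays and missed the threshold (limma adjusted p = 0.119). Pdgfrb was the 1 of 8 pericyte and smooth muscle markers that passed. The list's mean level was 6.34 to 6.85 in young, 6.76 to 7.58 in middle-aged and 6.86 to 8.12 in aged arrays. The median change of the 8 against young was 1.03 in aged and 0.66 in middle-aged arrays. Acta2 and Tagln, also on that list, averaged lower in older arrays and did not pass. In young, middle-aged and aged arrays Acta2 averaged 10.72, 9.83 and 10.49, and Tagln 8.82, 7.82 and 8.54.

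Of 10 satellite cell markers, 2 fell in aged arrays and 0 in middle-aged arrays, with mean levels of 9.74 to 10.11 in young, 9.34 to 9.91 in middle-aged and 9.25 to 9.67 in aged arrays. Against young, 1.25% of all genes were called lower in aged and 1.22% in middle-aged arrays, and 3.05% and 1.75% higher. All 9 measured myofibre markers rose in aged arrays and 0 in middle-aged arrays, at 6.41 to 7.49 in young, 7.21 to 8.39 in middle-aged and 8.51 to 9.74 in aged arrays. Of the endothelial markers, Pecam1, Tie1 and Emcn were dim, and of the 7 measured 1 (Tek) fell and none rose in aged arrays. Their mean level was 5.02 to 5.61 in young, 4.76 to 5.08 in middle-aged and 4.82 to 6.90 in aged arrays, with aged arrays 2 and 3, at 5.88 and 6.90, above every young array, and their median change was 0.15 in aged arrays. Of 8 measured macrophage markers, 1 (Cd14) rose in both comparisons, while Itgam, C1qb and C1qc were dim. The mean level of the 8 was 4.81 to 4.99 in young, 5.02 to 5.34 in middle-aged and 5.04 to 5.49 in aged arrays. No older array thus overlapped the young range. The median change of the 8 was only 0.14 in aged and 0.20 in middle-aged arrays, while Cd14 changed by 1.33 and 1.30. Lyz2, the brightest of the 8, was 1.61 higher in aged than in young arrays and missed the threshold (limma adjusted p = 0.0683). No neutrophil, lymphoid, mast cell or Schwann cell marker passed against young, and Kit, Cpa3 and Fcer1a of mast cells were dim. Since the sort left out CD45-positive cells, the macrophage, neutrophil, lymphoid and mast cell lists do not describe those cells in the muscle. The part of these cell types in the Il33, Il18 and response gene values was not tested.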

How the data were processed

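The authors deposited linear intensities made with RMA, per the submitters' processing notes, with the version and array annotation not given in the sources used here. Their log2 was taken without further normalization. Gene symbols came from the platform annotation of 2016, and 13509 of 13579 kept genes matched RefSeq by Entrez identifier. Of 45101 probe sets, 64 control probe sets, 932 of several genes and 9160 of no gene were left out. A probe set was kept if its value exceeded the 40th percentile of that array on at least 4 of 14 arrays, and the brightest kept probe set stood for its gene, which left 13579 genes.

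A limma 3.58.1 model (R 4.3.3) with age group as the only factor was fitted to all 14 arrays, with two-sided moderated tests, and a gene was called where its p, adjusted by Benjamini-Hochberg across the kept genes, was under 0.05. The fit was tested on simulated data with independent noise for each gene, which lack the shared deviations that define the array sets. The members and the 18 gene lists (206 symbols) were chosen with earlier results of these data known. Named genes were all members, up to 4 called genes per list and comparison, the genes most and least like Il33, the sort markers and the brightest markers of a cell type. Pdgfra, Il6, Lcn2, Zc3h12a, Il1r2, Nlrp3, Pycard, Foxp3, Nfkbia, Tnfaip3, Vcam1 and Cxcl2, and the markers given as dim, were named after their values were seen. Alternatives changed the filter, the probe set per gene, the normalization, the variance model, array weights, a covariate of RNA integrity, the array sets, a replicate term and the arrays included. Arrays have no counting depth, so their number limits the precision.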

Additional observations from a re-analysis of the deposited data

Results flagged for a closer look

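Of 66 groups of values checked, 7 had 1 array far from the rest by Dixon's gap test, where chance alone gives about 1 in 20. Members account for the first pair. Il1a read 3.21 in middle-aged array 4 and at most 2.92 in the other middle-aged arrays, all under the dim level. Il1b read 5.25 in middle-aged array 1 and at least 5.60 in the others of that age. The other 5 were response genes. Ccl2 was highest in young array 2, at 7.34 with the next at 6.64. Mmp3 stood at 11.87 in middle-aged array 3 with the next at 9.26, and at 5.41 in young array 5 with the next at 4.03. Sod2 read 12.33 in aged array 1 with the next at 12.05, and 11.50 in young array 2 with the next at 11.26. With 1 array left out in turn, the aged against young change ran from 6.50 to 7.10 for Mmp3, 2.47 to 2.71 for Ccl2 and 0.73 to 0.85 for Sod2, and the middle-aged against young change from 5.00 to 6.03, 1.73 to 2.34 and 0.78 to 0.90 for the same genes.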

How the results depend on the processing

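The number of arrays per age and the dim values of Il1a in all arrays and of Mmp3 and Ebf1 in most young arrays limit these results. Young values of Ptgs2 and Fbln7 also lay near the dim level. For single genes, 522 values kept direction and side of the threshold under other settings and 22 lost a call, 7 gained one, 28 turned sign and 3 Il33 values moved. With 1 array left out, 559 kept both, 17 lost a call, 1 gained one and 11 turned sign. Genes called in middle-aged against young numbered 403, and 1153 with array weights, 717 with the integrity covariate, 741 with a term for the set, 964 within set 1, 0 within set 2 and 155 to 458 with 1 array left out. In aged against young 584 were called, 976 with the set as a term, 21 within set 2, and 388 with young array 3 left out, up to 608 with others. For aged against middle-aged the count stayed at 0 to 0 with 1 array left out. The late minus the early step gave 0 calls (1614 at an unadjusted p under 0.05), 179 with array weights, 7 with the set as a term and 0 to 1 with 1 array left out. Members called in aged against young were 1, but 0 with the covariate, within set 1 and within set 2. In middle-aged against young they were 0, but 1 (Il18) with quantile normalization, array weights, only the groups compared, the set as a term and within set 1; both counts ran from 0 to 1 with 1 array left out, and 0 to 0 for aged against middle-aged. The response gene count in middle-aged arrays was 8, and 5 without shared-sequence probe sets, with Sod2 among those lost. Same-numbered arrays did not deviate together (r −0.48 to 0.26, best match with the own number in 2 of 5 and 0 of 4 arrays); the replicate block gave 489 calls in aged and 194 in middle-aged against young and 0 between them, and adjusted p of 0.0832, 0.0834 and 0.0631 for Myd88, Irak3 and Casp4 in middle-aged arrays. Signs turned mostly for values near 0, and the cause was not tested. For Il18 in aged against middle-aged the value was −0.071 with quantile normalization, −0.0039 with weights, −0.054 with the block, −0.023 with the covariate, −0.086 with the set term, −0.078 within set 1, −0.13 within set 2 and −0.089 to 0.14 with 1 array left out. Il1r1 in that comparison was 0.016 with median centring, 0.011 with weights and −0.16 to 0.11 with 1 array left out. Against young, Il1r1 in middle-aged arrays was 0.0040 with the block, 0.0047 with the set term, 0.20 within set 2 and −0.22 to 0.047 with 1 array left out, and in aged arrays −0.21 to 0.0059. Il1rap in aged against young was −0.069 with the covariate. Il1b in that comparison was 0.17 with the covariate, 0.092 within set 1 and −0.19 to 0.023 with 1 array left out, in aged against middle-aged 0.019 within set 1 and 0.028 within set 2, and in middle-aged against young −0.14 within set 2, where Il1rn was −0.11. Sod2 in aged against middle-aged was 0.070 without shared-sequence probe sets, 0.027 with median centring, 0.025 with weights, 0.11 within set 1 and −0.11 to 0.011 with 1 array left out. Within set 2, aged against middle-aged gave −0.049 for Il33, −0.19 for Casp4, −0.46 for Ccl2, −0.12 for Ptgs2 and −0.066 for Icam1. Il33 in aged against young was 4.05 with the covariate and 3.76 to 4.15 with 1 array left out.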
